A study of Mus musculus with 6 samples.

Results

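The clustered protocadherins of the mouse are cell-surface adhesion genes that lie in 3 neighbouring groups, alpha, beta and gamma, on chromosome 18. They were chosen by gene name and chromosome from the deposited expression table, which gave 58 of its 51826 genes, 14 of the alpha, 22 of the beta and 22 of the gamma cluster. The family as a whole was selected on a measured value, the genotype difference of 1 of its genes, Pcdhb21, so that difference is given as a description. Where the tests below count or call Pcdhb21, this is no evidence for that difference.

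Messenger RNA was sequenced from mouse brain tissue labelled as the paraventricular nucleus, a hypothalamic nucleus of neuroendocrine and presympathetic neurons. The knockout group (KO) holds 3 libraries from mice in which ADAM17, a membrane protease that sheds proteins from the cell surface, was knocked out in glutamatergic neurons. The wild-type group (WT) holds 3 libraries from wild-type mice. In each group replicates 1 and 2 are male and replicate F1 is female, and the 3 values of a group always stand in that order. The labels state neither the ages of the mice, the driver of the knockout, a treatment, nor whether a library came from 1 mouse or from a pool. If the libraries of a group were not separate mice, the p-values below measure only technical spread. The stated question was how this knockout affects gene expression in the tissue.

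Clustered protocadherins are single-pass membrane proteins of the cadherin superfamily. Each neuron uses a small set of them, and proteins of the same kind bind each other across opposing membranes, which lets a neuron tell its own branches from those of others. The beta genes are intact single-exon genes. In the alpha and gamma clusters each gene has its own large first exon, read from its own promoter, which is spliced to constant exons at the end of the cluster. The first exon encodes the extracellular part and the constant exons encode a cytoplasmic end that all proteins of the cluster share. Promoter choice depends on CTCF, cohesin and DNA methylation, and it varies from neuron to neuron. The C-type genes at the end of the alpha and gamma clusters (Pcdhac1, Pcdhac2, Pcdhgc3, Pcdhgc4 and Pcdhgc5) are mostly used more uniformly across neurons than the others.

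The positions of all 58 genes are identical to those in GENCODE M21 on GRCm38, and all 58 lie on the plus strand. The alpha genes span positions 36930184 to 37187661 of chromosome 18 and end in 3 constant exons of 59, 89 and 2712 bases. Exon bases used by more than 1 gene made up between 38.0% and 54.9% of each alpha gene, with a median of 53.45%. The beta genes span 37264938 to 37524479, and at most 9.7% of a beta gene was shared, the overlap of 455 bases between Pcdhb21 and Pcdhb22. The gamma genes span 37661793 to 37841873 and end in 3 constant exons of 59, 89 and 1968 bases. Shared bases made up between 27.8% and 66.8% of each gamma gene, with a median of 44.7%. A read that lies wholly in a constant exon cannot show which first exon it was spliced to, and the sources used here do not give how such reads were counted. Single alpha and gamma genes are therefore uncertain, and each cluster is given first as a sum. The alpha and gamma sums are limited too, since reads in shared exons may have been counted more than once or left out. The table also lists 2 genes under the symbol Pcdha11 (ENSMUSG00000007440 and ENSMUSG00000102206), which are told apart here by their identifiers.

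Libraries held between 35114426 and 54421330 counts. The 58 genes took between 0.0819% and 0.1105% of the counts in KO libraries and between 0.0944% and 0.1013% in WT libraries. Levels are given as CPM, the counts of a gene relative to the library's size, which was scaled by edgeR's TMM method. Adam17 stood at 15.4, 14.5 and 13.9 CPM in KO libraries, against 17.1, 17.2 and 15.6 CPM in WT libraries, a log2 fold change of -0.19 (SE 0.11, edgeR adjusted p = 0.747), with every KO library lower. The 9 markers of the labelled nucleus summed to between 579 and 662 CPM in KO libraries and between 598 and 625 CPM in WT libraries, with none at 0. Among them Avp stood between 5.25 and 13.8 CPM in KO libraries and between 5.96 and 38.2 CPM in WT libraries, and Oxt between 4.0 and 15.1 CPM in KO libraries and between 5.75 and 27.6 CPM in WT libraries. Sim1 stood between 0.626 and 1.1 CPM in KO libraries and between 0.683 and 2.51 CPM in WT libraries. The groups overlapped for these 3 genes, and the log2 fold changes of Avp and Oxt were -1.36 (SE 0.56, edgeR adjusted p = 0.735) and -1.17 (SE 0.58, edgeR adjusted p = 0.744). Most of the marker sum came from Arnt2, between 292 and 351 CPM in KO libraries and between 293 and 337 CPM in WT libraries, and from Sst, between 189 and 249 CPM in KO libraries and between 197 and 203 CPM in WT libraries. Markers of cortex and hippocampus were present in every library. They summed to 4790, 4910 and 4350 CPM in KO libraries, against 4340, 4360 and 2760 CPM in WT libraries. Only WT replicate F1 was low, and most of the sum came from Camk2a and Nrgn. KO replicate 1 and WT replicate F1 stood apart from the other libraries. KO replicate 1 had 20.63% mitochondrial counts, against between 7.22% and 9.2% in the rest, and both held cerebellar Cbln3, at 33.5 CPM in KO replicate 1 and 65.5 CPM in WT replicate F1. Markers of olfactory bulb output summed to 68.6, 51.2 and 32.2 CPM in KO libraries, against 15.6, 11.3 and 25.3 CPM in WT libraries, with no overlap. Of the 3 markers, only Cdhr1 was higher in every KO library, and DESeq2 called it. Its log2 fold change was 1.63 (SE 0.43, edgeR adjusted p = 0.735). Tbx21 and Doc2g overlapped between the groups. The part of this tissue in the values of the family was not tested.

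As sums, the 3 clusters stood at similar levels in both genotypes, and KO and WT libraries overlapped in each. The alpha genes summed to 122.4, 134.7 and 125.2 CPM in KO libraries, against 123.0, 124.2 and 115.1 CPM in WT libraries. Their means were 127 ± 6.44 CPM in KO and 121 ± 4.92 CPM in WT (SD, n = 3 each), a log2 ratio of 0.08. The lowest KO library lay within the WT range.

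The beta genes summed to 223.2, 186.0 and 166.7 CPM in KO libraries, against 169.6, 170.8 and 177.3 CPM in WT libraries. Their means were 192 ± 28.7 CPM in KO and 173 ± 4.13 CPM in WT (SD, n = 3 each), a log2 ratio of 0.15. KO replicate 1 was the highest library and KO replicate F1 the lowest, and without KO replicate 1 the log2 ratio was 0.03. KO replicate 1 also had the highest sum of 7 pan-neuronal markers, 7860 CPM. The sum was between 6190 and 6500 CPM in the other KO libraries and between 5070 and 6170 CPM in WT libraries. With TMM every KO library thus lay above every WT library, the lowest KO library only just. The 7 markers did not move together. In KO replicate 1 Snap25, Syt1, Rbfox3 and Elavl4 were at their highest, Tubb3 and Eno2 at their lowest, and Stmn2 between. The part of neuronal content in the cluster sums was not tested. In bulk tissue fewer cells of a type and less RNA per cell cannot be told apart.

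The gamma cluster had the largest sum of the 3, though the unknown counting of shared reads limits a comparison between clusters. It stood at 654.0, 729.2 and 776.2 CPM in KO libraries, against 668.6, 647.6 and 580.1 CPM in WT libraries. The means were 720 ± 61.6 CPM in KO and 632 ± 46.2 CPM in WT (SD, n = 3 each), a log2 ratio of 0.19. KO replicate 1 lay between WT replicates 2 and 1, and the other KO libraries lay above all WT libraries.

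The sign of these ratios rests on the scaling. On library totals without TMM the median gene shifted by -0.17 (log2), and the ratios were -0.08 for alpha, -0.03 for beta and 0.03 for gamma. With the deposited TPM the median gene shifted by -0.24, on log2(TPM + 1), and the ratios were -0.18, -0.11 and -0.07 in the same order. Relative to the median gene, the alpha ratio was 0.08 with TMM, 0.09 on library totals and 0.06 in TPM. The beta ratio was 0.15, 0.14 and 0.13 on those 3 scales, and the gamma ratio was 0.19, 0.2 and 0.17.

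**Figure D1:**
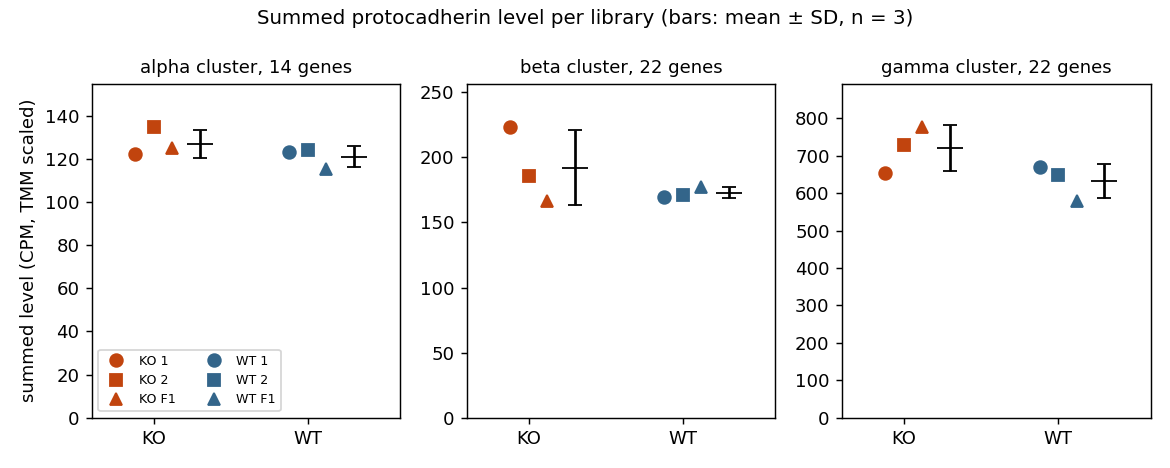
Summed level of the alpha, beta and gamma genes in each library (CPM, TMM scaled, axes from 0), KO left of WT, with circles for replicate 1, squares for replicate 2, triangles for replicate F1 and bars for mean ± SD (n = 3). KO and WT libraries overlap in all 3 clusters, and the KO sums run from 166.7 to 223.2 CPM for beta and from 654.0 to 776.2 CPM for gamma.

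None of the 58 genes passed the test of KO against WT (edgeR's quasi-likelihood test with sex as a term, Benjamini-Hochberg over all genes tested). All 58 passed the filter on low counts, and 1 of the 18956 genes tested was called, which is 0.00528%. At an unadjusted p under 0.05 there were 5 of the 58 (8.62%), against 6.38% of all genes tested. Those 5 include Pcdhb21, on which the family was selected, and without it there were 4 of 57 (7.02%). Among the same 57, DESeq2 called 1, Pcdha6, where it called 0.39% of all genes. With TMM, 35 of the 58 had a log2 fold change above 0 and the median was 0.11, beside 9364 of 18956 above 0 and a median of 0 over all genes. By cluster, 7 of 14 alpha, 16 of 22 beta and 12 of 22 gamma genes lay above 0. KO and WT libraries did not overlap for 10 of the 58 (17.2%), against 13.9% of all genes, and all 10 were higher in KO with TMM, against 6.61% of all genes higher and 7.32% lower. On library totals 3 genes were higher in every KO library and 4 lower, and in TPM 2 were higher and 8 lower, so the one-sided count depends on the scaling.

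Pcdhac2, the C-type alpha gene that serotonergic neurons need for the spacing of their axons, held the largest part of the alpha sum. It stood at 50.1, 56.3 and 51.5 CPM in KO libraries, against 47.2, 49.8 and 48.7 CPM in WT libraries. The log2 fold change was 0.12 (SE 0.1, edgeR adjusted p = 0.802). Its KO libraries all lay just above its WT libraries with TMM, but not on library totals or in TPM. Its part of the alpha sum was nearly constant, between 40.9% and 41.8% in KO libraries and between 38.4% and 42.3% in WT libraries. Per length it stood at 18.4 ± 2.96 TPM (SD, n = 6), above all other alpha genes. Pcdhac1, the other alpha C-type gene, was low, at 4.38, 2.95 and 3.55 CPM in KO libraries, against 4.35, 4.17 and 3.74 CPM in WT libraries. Its groups overlapped with TMM, and its log2 fold change was -0.17 (SE 0.2, edgeR adjusted p = 0.844). On library totals and in TPM every KO library lay below every WT library.

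Among the alternate alpha genes, Pcdha6 showed the largest difference in the direction of KO. It stood at 13.4, 11.4 and 10.5 CPM in KO libraries, against 7.36, 7.87 and 6.47 CPM in WT libraries. Every KO library lay above every WT library, and this held on library totals and in TPM too. The log2 fold change was 0.70 (SE 0.13), with an edgeR adjusted p of 0.735 and a DESeq2 adjusted p of 0.00984, so the call depends on the tool. Pcdha4 followed with a log2 fold change of 0.49 (SE 0.49, edgeR adjusted p = 0.822), at 2.57, 8.34 and 2.16 CPM in KO libraries, against 3.36, 2.52 and 2.8 CPM in WT libraries. Only KO replicate 2 was high, and the other KO libraries lay within or below the WT range.

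Of the alpha genes with the lowest log2 fold changes, Pcdha1 stood at 0.938, 1.88 and 1.45 CPM in KO libraries, against 3.45, 1.11 and 1.92 CPM in WT libraries. Its log2 fold change was -0.59 (SE 0.47, edgeR adjusted p = 0.791), and WT replicate 1 alone was high. Pcdha5 stood at 5.21, 5.68 and 5.54 CPM in KO libraries, against 7.09, 7.23 and 5.65 CPM in WT libraries. With TMM its groups met at WT replicate F1, and its log2 fold change was -0.27 (SE 0.15, edgeR adjusted p = 0.745). On library totals and in TPM all its KO libraries lay below its WT libraries. Pcdha8, the lowest alpha gene at 0.408 ± 0.172 TPM (SD, n = 6), stood at 1.32, 0.313 and 1.23 CPM in KO libraries, against 0.861, 1.01 and 1.44 CPM in WT libraries. KO replicate 2 was the one low library.

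The alternate alpha genes with the highest TPM beside Pcdha6 overlapped between the genotypes. Pcdha11 (ENSMUSG00000102206) stood at 7.26, 11.6 and 15 CPM in KO libraries, against 12.2, 14.5 and 8.73 CPM in WT libraries. Pcdha12 stood at 7.75, 10.3 and 9.46 CPM in KO libraries, against 12.1, 12.6 and 7.49 CPM in WT libraries. In both genes the 2 lowest libraries were KO replicate 1 and WT replicate F1, the ones that stood apart. The other 5 alpha genes stood between 3.51 and 9.59 CPM in all libraries, and the groups of all 5 overlapped with TMM. In TPM, Pcdha2 was lower in every KO library.

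**Figure D2:**
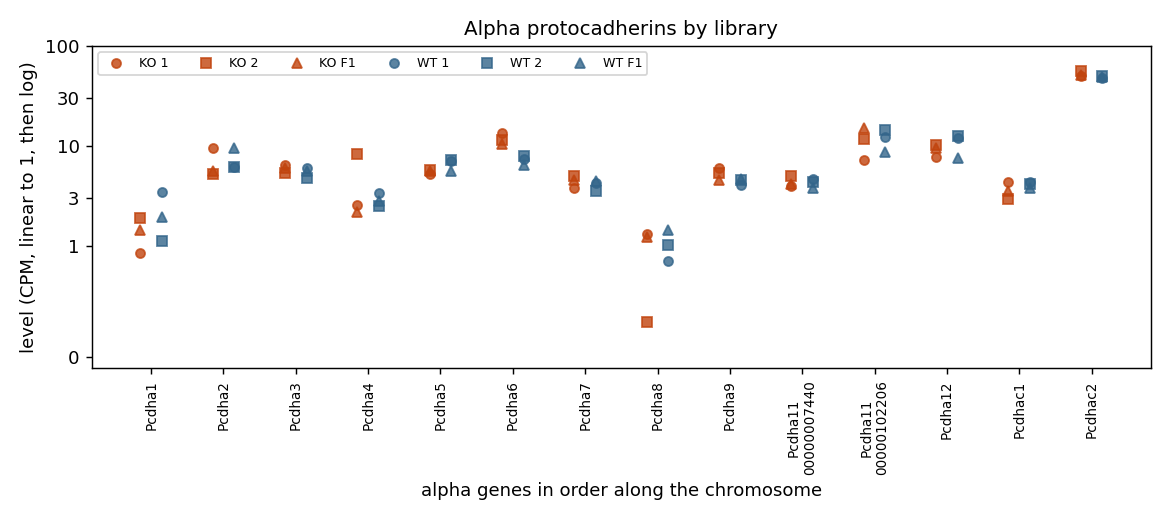
Level of the 14 alpha genes in order along the chromosome (CPM, linear up to 1 and logarithmic above), with KO libraries in red left of WT libraries in blue and 1 symbol per library. Pcdhac2 stands between 47.2 and 56.3 CPM in all 6 libraries, and the KO points of Pcdha6 lie above its WT points.

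Per length, Pcdhb20 at 8.69 ± 0.562 TPM, Pcdhb17 at 8.36 ± 0.709 TPM, Pcdhb9 at 8.24 ± 1.24 TPM and Pcdhb6 at 6.44 ± 1.24 TPM were the highest (SD, n = 6 each). The first 3 of these did not differ beyond their spread. Pcdhb1 at 0.276 ± 0.152 TPM was the lowest, followed by Pcdhb21 at 0.49 ± 0.9 TPM (SD, n = 6 each). Order along the cluster and mean TPM had a Spearman's rho of -0.08 over the 22 genes, a description only, with a median of 4.96 TPM over Pcdhb1 to Pcdhb11 and 3.47 TPM over Pcdhb12 to Pcdhb22.

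Of the abundant beta genes, Pcdhb20 stood at 22.5, 15.2 and 14 CPM in KO libraries, against 12.1, 12.2 and 13.4 CPM in WT libraries. The groups did not overlap with TMM or in TPM, but did on library totals. KO replicate 1 was the highest library, and the log2 fold change was 0.44 (SE 0.2, edgeR adjusted p = 0.735). Pcdhb17 stood at 22.8, 19.6 and 17.9 CPM in KO libraries, against 18.1, 16.7 and 15.6 CPM in WT libraries. Pcdhb9 stood at 12.8, 12.7 and 12.3 CPM in KO libraries, against 10.1, 10.6 and 12.4 CPM in WT libraries. For both, 1 WT library reached into the KO range. Pcdhb6 stood at 11.8, 8.25 and 9.66 CPM in KO libraries, against 10.8, 9.12 and 8.12 CPM in WT libraries, with full overlap.

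Pcdhb8 had the largest log2 fold change among beta genes with counts in every library. It stood at 6.74, 5.99 and 7.5 CPM in KO libraries, against 2.81, 3.98 and 5.52 CPM in WT libraries. Every KO library was higher than every WT library with TMM, but not on library totals or in TPM. The log2 fold change was 0.75 (SE 0.2, edgeR adjusted p = 0.735). At the other end Pcdhb1, near the floor of detection, stood at 0.208, 0.224 and 0.466 CPM in KO libraries, against 0.353, 0.188 and 0.56 CPM in WT libraries. Its groups overlapped and its log2 fold change was -0.3 (SE 0.41, edgeR adjusted p = 0.868). The other 14 beta genes stood between 2.78 and 19.5 CPM in all libraries. With TMM, only Pcdhb10 and Pcdhb13 of them did not overlap between the groups, with KO higher. In TPM this did not hold, and Pcdhb14 and Pcdhb16 were lower in every KO library.

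Pcdhb21 and Pcdhb22 are neighbours whose annotated exons overlap, and their counts moved in opposite directions in 1 library. Pcdhb21 had 23, 16 and 196 counts in KO libraries, against 0, 0 and 27 counts in WT libraries. Most of its counts came from KO replicate F1, and WT replicate F1 lay above both male KO libraries in counts. In CPM these were 0.799, 0.358 and 4.8 in KO libraries, against 0, 0 and 0.458 in WT libraries. Pcdhb22 stood at 14.7, 15.1 and 1.35 CPM in KO libraries, against 11.7, 12.6 and 14.7 CPM in WT libraries. The library with high Pcdhb21 was thus the only one with low Pcdhb22. Summed, both genes gave 15.5, 15.5 and 6.15 CPM in KO libraries, against 11.7, 12.6 and 15.1 CPM in WT libraries. The sum of both stayed lowest in KO replicate F1, and the male KO libraries lay above the WT libraries. The log2 fold change of Pcdhb22 was -0.74 (SE 0.79, edgeR adjusted p = 0.831).

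**Figure D3:**
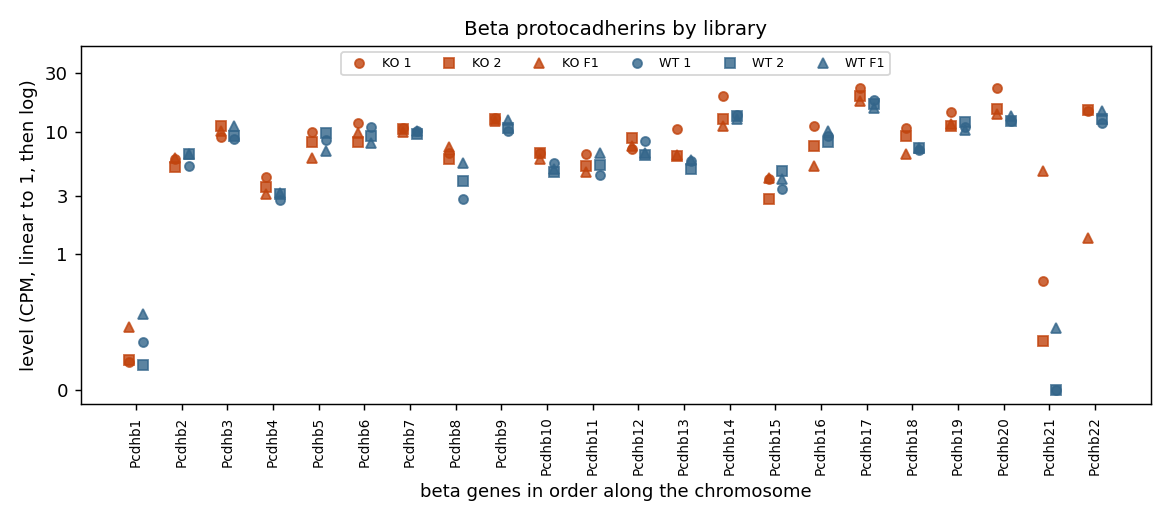
Level of the 22 beta genes in order along the chromosome (CPM, linear up to 1 and logarithmic above), with KO libraries in red left of WT libraries in blue and 1 symbol per library. Most genes stand close together in all 6 libraries, while at the right edge the KO replicate F1 triangle is high for Pcdhb21, at 4.8 CPM, and low for Pcdhb22, at 1.35 CPM.

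The gamma cluster behaved differently, since nearly every library had a leading gene of its own. Pcdhgb8 led KO replicate 1 with 31.4% of the gamma sum, Pcdhga2 led KO replicate 2 with 43.4% and Pcdhgb2 led KO replicate F1 with 18.5%. Pcdhgb1 led WT replicate 1 with 42.4%, Pcdhgb2 led WT replicate 2 with 38.9% and Pcdhgb4 led WT replicate F1 with 40.9%. The 6 libraries thus had 5 different leading genes, and the gene that led 1 library was ordinary in most of the others.

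Single genes show the size of these steps. Pcdhgb4, an alternate gene of the B type, stood at 10.1, 11 and 6.94 CPM in KO libraries, against 7.55, 7.47 and 237 CPM in WT libraries. Pcdhgb8 stood at 206, 9.52 and 10.1 CPM in KO libraries, against 7.91, 10.4 and 8.8 CPM in WT libraries. Both were high in 1 library and flat in the other 5. Pcdhgb1 stood at 11.2, 21.7 and 30.3 CPM in KO libraries, against 283, 16.2 and 9.48 CPM in WT libraries. Pcdhga2, of the A type, stood at 60.1, 317 and 11.6 CPM in KO libraries, against 16.6, 14.1 and 12.1 CPM in WT libraries. WT replicate 1 alone was high for Pcdhgb1, and male KO libraries alone were high for Pcdhga2. Pcdhgb2 stood at 13.9, 12 and 144 CPM in KO libraries, against 11.5, 252 and 11.8 CPM in WT libraries, so that 1 library of each genotype was high. Pcdhga8, the lowest gamma gene, stood at 0.486, 14.6 and 1.54 CPM in KO libraries, against 0.751, 0.612 and 0.628 CPM in WT libraries, with KO replicate 2 alone high.

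KO replicate F1 spread its excess over 3 genes. Beside Pcdhgb2 these were Pcdhga1, the first gene of the cluster, and Pcdhgc3, a C-type gene that promotes dendrite branching of cortical neurons. Pcdhga1 stood at 8.82, 8.52 and 130 CPM in KO libraries, against 6.74, 6.57 and 5.81 CPM in WT libraries. Pcdhgc3 stood at 9.0, 9.16 and 83.3 CPM in KO libraries, against 6.3, 6.08 and 6.95 CPM in WT libraries. In both genes all KO libraries lay above all WT libraries with TMM, and the size of the difference came from KO replicate F1. No gamma gene passed the test of KO against WT. The log2 fold changes ran from -1.87 (SE 1.8) for Pcdhgb1 and -1.80 (SE 2.45) for Pcdhgb2 to 2.54 (SE 1.46) for Pcdhgb8 and 2.79 (SE 1.22) for Pcdhga8, with edgeR adjusted p-values of 0.821, 0.87, 0.75 and 0.735 in that order.

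**Figure D4:**
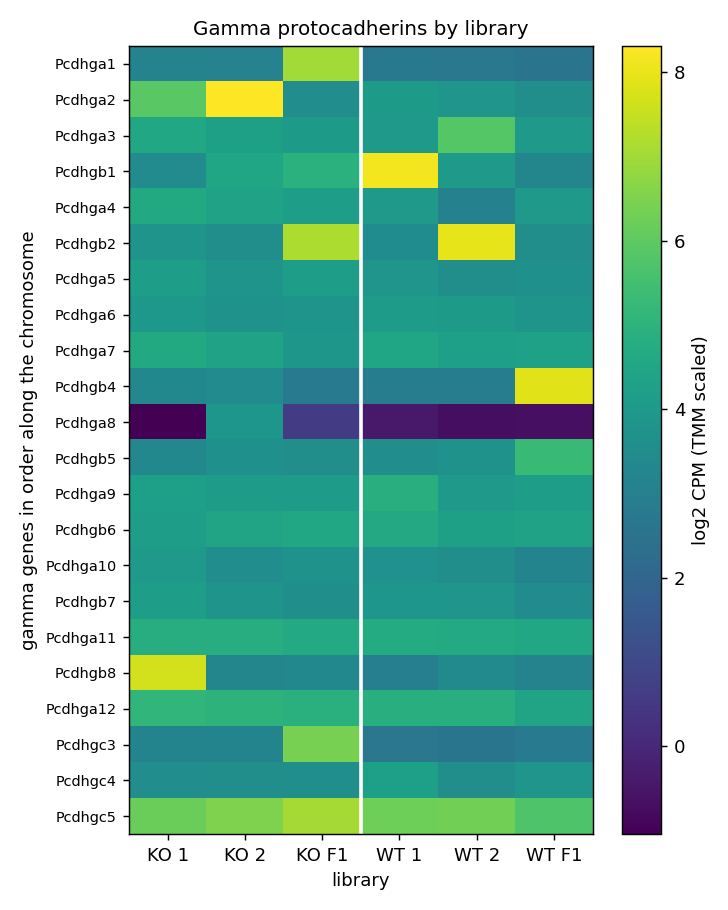
Level of the 22 gamma genes (rows, in order along the chromosome) in the 6 libraries (columns, KO left of WT) as log2 CPM with TMM scaling, yellow for high and dark blue for low. Each column has its own bright cells, such as Pcdhga2 in KO replicate 2 and Pcdhgb4 in WT replicate F1, while Pcdhgc5 is bright in all 6.

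To describe these steps, a gene was counted where a library held at least 10 counts of it and over 3 times its median CPM in the other 5 libraries, a limit chosen after the values were seen. This gave 12 gene and library pairs in the gamma cluster, from 10 of its 22 genes (45.5%), against 2.31% of all genes tested. At 10 times the median it gave 8 gamma genes (36.4%), against 0.343% of all genes. In the alpha cluster 1 gene passed the lower limit, Pcdha4 in KO replicate 2, and in the beta cluster 1, Pcdhb21 in KO replicate F1. The genes just inside it in the gamma cluster were Pcdhgb5 in WT replicate F1, at 38.9 CPM and 3.25 times its median, and Pcdhga3 in WT replicate 2, at 57.4 CPM and 3.48 times its median. These steps occurred in both genotypes and both sexes.

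Although the genes differed, the part of the cluster they held was alike in all libraries. Genes over the limit summed to 266, 331 and 357 CPM in KO libraries, against 283, 309 and 276 CPM in WT libraries. As a share of the gamma sum this was 40.6%, 45.4% and 46.0% in KO libraries, against 42.4%, 47.8% and 47.6% in WT libraries. The shares of KO and WT libraries overlapped, and they include the ordinary level of those genes. The 12 genes that never passed the limit summed to 301, 294 and 331 CPM in KO libraries, against 300, 263 and 232 CPM in WT libraries. Whether reads from the constant exons were given to 1 or a few genes in each library was not tested, since the deposited values are per gene. Of the 22 gamma genes, 17 end at position 37841873 and 5 end at 37841870. Genes of those 5 led 4 of the 6 libraries, a different gene in each.

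**Figure D5:**
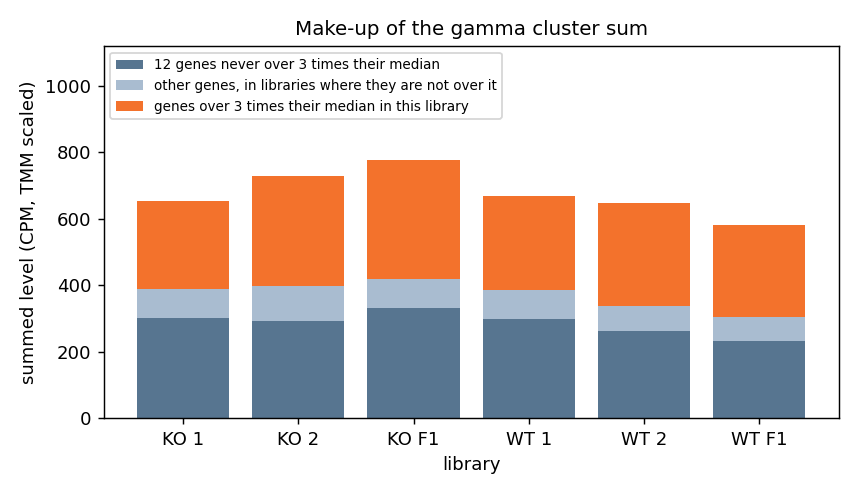
Make-up of the gamma sum in each library (CPM, TMM scaled, bars from 0, KO left of WT), split into the 12 genes never over 3 times their median (bottom), the other genes where they were not over it (middle) and the genes over it in that library (top). The top part is between 40.6% and 47.8% of each bar, though it comes from different genes.

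The gamma genes outside these steps varied less between libraries. Pcdhgc5, a C-type gene whose protein binds GABA-A receptors at synapses, was the highest member of the family per length at 48.2 ± 16.2 TPM (SD, n = 6). It stood at 73.3, 89.8 and 131 CPM in KO libraries, against 75.6, 79.1 and 53.1 CPM in WT libraries. KO replicate F1 was the highest library and WT replicate F1 the lowest, and the males overlapped. The log2 fold change was 0.48 (SE 0.26, edgeR adjusted p = 0.744). Pcdhgc4, the C-type gene needed for the survival of cortical interneurons in mice, stood at 11.7, 11.9 and 12.4 CPM in KO libraries, against 18.8, 11.8 and 14.1 CPM in WT libraries. Its groups overlapped and its log2 fold change was -0.31 (SE 0.19, edgeR adjusted p = 0.754). Pcdhga10 stood at 16.3, 11.7 and 13.7 CPM in KO libraries, against 13.0, 11.8 and 9.05 CPM in WT libraries. Outside their own steps, the other 11 gamma genes stood between 8.39 and 34.4 CPM. With TMM, only Pcdhga4 and Pcdhga12 of them did not overlap between the groups, with KO higher. For Pcdhga4 this held on library totals too, and for neither in TPM. Pcdhga6 and Pcdhgb5 were lower in every KO library on library totals and in TPM, and Pcdhga7 in TPM only.

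The rank order of genes within a cluster gives the same contrast between clusters. Over the 15 pairs of libraries, Spearman's rho across the alpha genes had a median of 0.92 and ran from 0.75 to 0.97. Across the beta genes it had a median of 0.93 and ran from 0.66 to 0.96. Across the gamma genes the median was 0.49 and the range 0.05 to 0.76. Genes of a cluster are not independent and the pairs share libraries, so these values are descriptions. The median coefficient of variation over the 6 libraries was 17.9% for alpha, 17.2% for beta and 31.4% for gamma genes, against 16.4% for all genes tested.

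No member passed the test of female against male libraries (edgeR), where 0.0422% of all genes did. At an unadjusted p under 0.05 there were 6 of the 58, Pcdhb21 among them, against 4.58% of all genes. DESeq2 called 1, Pcdhb21, against 0.274% of all genes. The family was selected on Pcdhb21, and most of its counts came from KO replicate F1. Its call is therefore a description and does not show a difference between the sexes. Medians of the log2 difference, female minus male, were -0.1 for alpha, -0.11 for beta and -0.16 for gamma genes. The product term of genotype and sex called 4 of the 58 (edgeR), against 0.0739% of all genes. They were Pcdhgb4, Pcdhga1, Pcdhgc3 and Pcdhb22. At an unadjusted p under 0.05 there were 8, against 7.42% of all genes, and DESeq2 called 6, against 1.27%. This fit has 1 female library per genotype and 2 residual degrees of freedom. All 4 genes are ones whose value stepped in a single female library, as given above, so the sex of that library and the library itself cannot be told apart. Pcdhb22 was low in the library with most of the Pcdhb21 counts and overlaps that gene, so its call is not independent of the selection. With the gamma genes counted as 1 gene and Pcdhb21 with Pcdhb22 as 1, none of the 34 alpha and beta members left was called by edgeR. The 4 genes above have no row of their own in that fit, so it cannot test their calls. On library totals without TMM none of the 58 was called, and limma-trend on log2(TPM + 1) did not call Pcdhb22.

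The genes that act on or with clustered protocadherins gave no edgeR call in either direction. Of 17 genes of promoter choice and chromatin, 13 had a log2 fold change above 0, with a median of 0.05. Ctcf, whose protein loops chosen promoters to an enhancer, averaged 67.0 ± 2.02 CPM in KO and 64.9 ± 3.78 CPM in WT. Smchd1, a repressor of the clusters, averaged 43.5 ± 6.88 CPM in KO and 42.6 ± 3.43 CPM in WT (SD, n = 3 each for both genes). Both overlapped between the groups. The cohesin genes Rad21 and Smc3 had the smallest p of the list, with log2 fold changes of 0.21 (SE 0.11, edgeR adjusted p = 0.744) and 0.28 (SE 0.16, edgeR adjusted p = 0.745). Both were highest in KO replicate 1.

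Of 8 genes of protocadherin cleavage, 5 lay above 0, with a median of 0.03. Adam10, the protease that sheds the extracellular part of gamma protocadherins before gamma-secretase releases the cytoplasmic end, stood at 101, 87.9 and 88.2 CPM in KO libraries, against 81.6, 79.5 and 84.7 CPM in WT libraries. KO libraries lay above WT libraries, and the log2 fold change was 0.17 (SE 0.1, edgeR adjusted p = 0.747).

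Of 16 genes of intracellular partners, 12 lay above 0, with a median of 0.17. Wasf1, of the WAVE complex that protocadherins recruit to act on actin, stood at 411, 293 and 227 CPM in KO libraries, against 223, 216 and 193 CPM in WT libraries. Its log2 fold change was 0.54 (SE 0.16) and that of Cyfip2, another subunit, was 0.28 (SE 0.09), each with an edgeR adjusted p of 0.735. Neither passed the test, and in both the KO libraries lay above the WT libraries with KO replicate 1 highest. Markers of cortex and hippocampus also had log2 fold changes above 0, 13 of 13, though their sum overlapped between the groups. Their part in these values was not tested.

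Of 12 non-clustered protocadherins, 10 lay above 0, with a median of 0.13. Pcdh11x had a log2 fold change of 0.57 (SE 0.19) and Pcdh15, the tip-link protein of hair cells, one of -0.47 (SE 0.22), each with an edgeR adjusted p of 0.735. Of 18 other neuronal adhesion genes, 16 lay above 0, with a median of 0.17, led by Dscaml1 at 0.28 (SE 0.11) and Cdh13 at 0.25 (SE 0.09), each with an edgeR adjusted p of 0.735. Of 17 tested genes that neighbour the clusters on the chromosome, 8 lay above 0, with a median of -0.02. Ndufa2, a subunit of respiratory complex I, had the smallest p of these. Its log2 fold change was -0.55 (SE 0.26, edgeR adjusted p = 0.735), and KO replicate 1 was its lowest library at 13.3 CPM. Hars2 followed at -0.31 (SE 0.16, edgeR adjusted p = 0.744). For both genes every KO library lay below every WT library with TMM. The 58 clustered genes, with a median of 0.11, lay between the neighbours and the other adhesion genes.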

How the data were processed

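Each gene and library has 3 deposited values, which are, per the file headers, a raw count, a TPM and an FPKM. Counts were used for the tests, TPM for levels per length and as an alternative. The deposited FPKM values were only checked, and were proportional to TPM in every library. The submitters' processing notes name FastQC (0.11.2), Trimmomatic (0.36) and bedtools (2.26.0). Which aligner, counter, strand setting and build were used is not given in those sources. Gene identifiers matched GENCODE M21 for 99.6% of genes.

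Genes were kept with filterByExpr by genotype (18956 genes) and tested with edgeR 4.0.16 in R 4.3.3 (robust quasi-likelihood, TMM, genotype and sex as terms, Benjamini-Hochberg at 0.05). The interaction came from a fit with the product term. Log2 fold changes are KO minus WT. Alternatives used DESeq2 1.42.0, limma 3.58.1 on log2(TPM + 1), other filters and scalings, and left-out libraries. A total of 3 counts corresponds to between 0.055 and 0.085 CPM, for counting error only.

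Members and lists were chosen with earlier results of these data known. Genes named with values in every library were, per cluster, the 4 highest and 2 lowest in TPM, the 2 with the largest log2 fold change in each direction, the 2 with the widest spread, the C-type genes, Pcdhb21 and any member past a threshold. For other lists they were the 2 with the smallest p, with Adam17, Adam10, Ctcf and Smchd1. Pcdhga3, Pcdhgb5, Pcdhgc3 as a step, and the markers Sim1, Avp, Oxt, Arnt2, Sst, Cbln3, Cdhr1, Tbx21 and Doc2g were described after their values were seen.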

Additional observations from a re-analysis of the deposited data

Results flagged for a closer look

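The product term of genotype and sex passed the threshold for 4 genes (edgeR's quasi-likelihood test, Benjamini-Hochberg adjustment), with 1 female library per genotype, so these are calls on single libraries and do not show a difference between the sexes. None of the 4 was called on library totals without scaling, and limma-trend on log2(TPM + 1) did not call Pcdhb22. With the gamma genes as 1 gene and Pcdhb21 with Pcdhb22 as 1, the 4 have no row of their own and could not be called. The log2 difference, the female KO minus WT value minus the male one, was -5.59 for Pcdhgb4 (SE 0.25, edgeR adjusted p = 0.0045), where WT replicate F1 alone was high. It was 4.1 for Pcdhga1 (SE 0.24, edgeR adjusted p = 0.0158) and 3.03 for Pcdhgc3 (SE 0.25, edgeR adjusted p = 0.0367), where KO replicate F1 alone was high. It was -3.74 for Pcdhb22 (SE 0.29, edgeR adjusted p = 0.0364), where KO replicate F1 alone was low. Pcdhb22 shares 455 exon bases with Pcdhb21, on which the family was selected, and that library held most of the Pcdhb21 counts. Its call is therefore tied to the selection and is a description. The male means were close, at 10.6 CPM in KO and 7.51 CPM in WT for Pcdhgb4, 8.67 CPM in KO and 6.65 CPM in WT for Pcdhga1, 9.08 CPM in KO and 6.19 CPM in WT for Pcdhgc3, and 14.9 CPM in KO and 12.1 CPM in WT for Pcdhb22 (n = 2 each). Sex and library cannot be told apart, and steps of the same size in male libraries (Pcdhgb8, Pcdhga2, Pcdhgb1 and Pcdhgb2) enter this test as spread.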

How the results depend on the processing

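For KO against WT, 0 members were called by edgeR or limma-trend under every setting run, and DESeq2 called 2, of which 1 is Pcdhb21, whose difference selected the family, and the other is Pcdha6. Same-numbered KO and WT libraries did not deviate together (correlations of -0.04, 0.02 and 0.02), so the numbers do not pair them. With the replicate block 0 members were called. For female against male, DESeq2 called 1, again Pcdhb21, and leaving out 1 male library gave 0 each time with edgeR. Leaving out a female library changed the count, with 1 female library then left. For the interaction, library totals without scaling gave 0, limma-trend 3, gamma genes as 1 gene with Pcdhb21 and Pcdhb22 as 1 gave 0, and leaving out 1 male library gave between 5 and 11, with 8 without KO replicate 1 and 11 without KO replicate 2, where 1493 genes were called in all. Without a female library it could not be fitted. The log2 ratio of the alpha sum was -0.08 on library totals, -0.18 in TPM and -0.02 as the median over genes. The beta sum was -0.03 on library totals and -0.11 in TPM, and the gamma sum 0.03 and -0.07. Leaving out 1 library gave ratios from 0.04 to 0.11 for alpha, from 0.03 to 0.25 for beta and from 0.13 to 0.25 for gamma. Without KO replicate 1 and WT replicate F1, a setting added after seeing the data, they were 0.07, 0.05 and 0.19, and 0 members were called. Of 487 values for named members under these settings, 447 stayed within the limits set and 40 moved. The limits widened with each gene's own spread between libraries, so a variable gene could change sign and still count as unmoved. Pcdha8 did so, from -0.24 to 0.17 without KO replicate 2. The count therefore does not show that the values of variable genes are stable. The causes of the moves were not tested. Levels near the floor, such as Pcdhb1 and Pcdhb21, are limited by depth.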

Other observations

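A gene model without a proper name, Gm38182, overlaps the constant exons of the gamma cluster and is not among the 22 gamma genes. It had 755, 701 and 190 counts in KO replicates 1, 2 and F1, against 543, 161 and 286 counts in WT replicates 1, 2 and F1. KO and WT libraries overlapped, and with it added to the gamma sum the log2 ratio was 0.2. Another model, Gm42416, had 51 counts in WT replicate 2 and 0 in the other 5 libraries.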
